A study of Mus musculus with 12 samples.

Results

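The genes described here are 10 matrix glycoproteins and proteoglycans, namely *Prelp*, *Ecm1*, *Tnc*, *Tnr*, *Vcan*, *Ncan*, *Bcan*, *Spon1*, *Fn1* and *Sparc*, out of 55401 genes in the series. They were taken by gene name, and the list was chosen by the measured FPKM differences between NAD+ and Ctrl cultures in both conditions, so their NAD+ differences are given as a description, with no p-value. The study grew adult neural stem/progenitor cells (aNSPCs) from the forebrains of C57BL/6 mice aged 8 to 10 weeks, in a medium for which the labels name EGF and FGF-2 in all 12 samples, and differentiation cultures were given 1 µM retinoic acid and 5 µM forskolin. RNA-seq was run on 12 samples, 3 each of proliferating Ctrl, proliferating NAD+, differentiation Ctrl and differentiation NAD+, where NAD+ means 1 mM nicotinamide adenine dinucleotide in the medium. The exposure time of the sequenced cultures is not given in the sources used here. The labels give "untreated" as the treatment of all 12 samples, while 6 titles name NAD+, and the groups follow the titles. The study calls the 3 samples of a group biological repeats, but nothing states that they came from different mice, so p-values measure the spread between these samples.

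The extracellular matrix of the brain is built on hyaluronan, to which the lecticans (versican, neurocan and brevican) bind, and tenascins crosslink lecticans. In the stem cell niche tenascin-C is typical of immature tissue, whereas tenascin-R and brevican belong to the mature matrix, including the perineuronal nets around neurons. Small leucine-rich proteoglycans such as PRELP, and glycoproteins such as ECM1, fibronectin, F-spondin and SPARC, tie cells to collagens and basement membrane or change how cells attach.

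The values are FPKM, that is fragments scaled to the exon length of the gene and to all mapped fragments of the sample, so levels of different genes are compared per length. The cultures had neural stem/progenitor markers in every sample. *Nes*, *Sox2*, *Vim*, *Msi1*, *Fabp7* and *Prom1* summed to 2482.83 to 2732.25 FPKM in proliferating Ctrl and 1498.6 to 2002.5 FPKM in proliferating NAD+ samples. Under differentiation conditions they summed to between 724.4 and 814.17 FPKM. Most of the proliferating sums was *Fabp7*, at means of 2107 FPKM in Ctrl and 1317 FPKM with NAD+. *Prom1* was low, at 0.17 to 0.27 FPKM in proliferating Ctrl and 0.22 to 0.32 FPKM in proliferating NAD+ samples. The 6 astrocyte markers summed to 231.69 to 445.11 FPKM in proliferating and 994.82 to 1443.78 FPKM in differentiation samples, and the 6 neuron markers to 21.91 to 35.27 FPKM in all 12. Summed markers reached at most 0.37 FPKM for microglia, 0.80 FPKM for endothelial cells and 1.64 FPKM for pericytes and fibroblasts. Proliferating Ctrl replicate 1 stood apart, with an FPKM sum over all genes of 363330 against 308828 to 314683 in the other 5 proliferating samples. The proliferating NAD+ differences of *Tnr*, *Vcan*, *Bcan*, *Fn1* and *Sparc* and the calls there are given with and without it. Group means, ratios and shares include it. In bulk RNA, fewer cells of a type and less RNA per cell cannot be told apart.

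Of the 10 genes, all protein-coding, *Prelp* (chromosome 1, 133910304 to 133921414), *Tnr* (chromosome 1, 159523769 to 159931729), *Fn1* (chromosome 1, 71585520 to 71653200), *Ecm1* (chromosome 3, 95734147 to 95739569) and *Bcan* (chromosome 3, 87987531 to 88000230) share 2 chromosomes in mm10. The others are *Tnc* (chromosome 4, 63959785 to 64047015), *Spon1* (chromosome 7, 113765998 to 114043370), *Ncan* (chromosome 8, 70093085 to 70120873), *Sparc* (chromosome 11, 55394500 to 55423183) and *Vcan* (chromosome 13, 89655312 to 89742509). RefSeq promoter sequences (GRCm38.p6) were matched by symbol for 8 of the 10, all but *Fn1* and *Spon1*. The 250 bases before the start are shown for the 2 genes that were higher with NAD+ in both conditions (*Prelp* and *Ecm1*), for the 2 that were lower together under differentiation conditions (*Vcan* and *Tnr*), and for *Tnc*, whose NAD+ difference changed sign between conditions. Capitals mark matches to any of 5 motifs on either strand, which did not overlap each other in these windows. The cAMP response element (CRE) was searched as TGACGTCA. The AP-1 motif, bound by Fos and Jun proteins, was searched with any base in its middle as TGANTCA. The half-site of the retinoic acid response element was searched as AGGTCA. The GC box was searched as GGGCGG, and the TATA motif of core promoters was searched in its short form TATAA.
Prelp, chr1:133921402-133921651, minus strand: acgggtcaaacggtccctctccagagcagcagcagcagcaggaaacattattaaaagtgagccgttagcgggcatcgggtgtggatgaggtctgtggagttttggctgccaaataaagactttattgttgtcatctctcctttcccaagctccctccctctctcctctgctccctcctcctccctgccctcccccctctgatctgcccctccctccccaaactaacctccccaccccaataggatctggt
Ecm1, chr3:95739570-95739819, minus strand: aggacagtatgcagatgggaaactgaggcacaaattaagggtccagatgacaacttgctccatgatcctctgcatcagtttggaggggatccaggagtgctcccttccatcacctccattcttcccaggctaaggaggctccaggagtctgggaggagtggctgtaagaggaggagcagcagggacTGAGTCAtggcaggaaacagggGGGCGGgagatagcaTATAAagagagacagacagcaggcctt
Tnc, chr4:64047016-64047265, minus strand, the upstream of 2 starts: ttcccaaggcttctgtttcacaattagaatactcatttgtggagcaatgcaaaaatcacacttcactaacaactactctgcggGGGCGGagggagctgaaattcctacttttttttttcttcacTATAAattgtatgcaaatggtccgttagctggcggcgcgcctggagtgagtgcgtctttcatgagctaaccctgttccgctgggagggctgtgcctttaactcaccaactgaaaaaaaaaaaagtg
Vcan, chr13:89742513-89742762, minus strand: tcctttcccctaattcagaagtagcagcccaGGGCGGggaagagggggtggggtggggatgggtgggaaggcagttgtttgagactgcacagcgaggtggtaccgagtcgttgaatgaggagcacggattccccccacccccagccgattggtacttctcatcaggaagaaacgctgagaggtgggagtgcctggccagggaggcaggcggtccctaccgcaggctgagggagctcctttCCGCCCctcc
Tnr, chr1:159523519-159523768, plus strand: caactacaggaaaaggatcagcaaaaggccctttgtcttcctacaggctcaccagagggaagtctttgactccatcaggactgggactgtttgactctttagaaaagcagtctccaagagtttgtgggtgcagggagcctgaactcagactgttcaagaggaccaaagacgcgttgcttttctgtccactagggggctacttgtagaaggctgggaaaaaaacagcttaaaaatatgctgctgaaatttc

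Only the *Ecm1* window among these 5 held an AP-1 match, TGAGTCA, which began 64 bases before the start (position -64), together with a GC box at -42 and a TATA motif at -27. The *Tnc* window held a GC box at -167 and a TATA motif at -126, and the *Vcan* window held GC boxes at -219 and -10. Counted from the other *Tnc* start, whose window overlaps this one and is not shown, these 2 *Tnc* matches lie at -246 and -205. That window also held a TATA motif at -27. The *Prelp* and *Tnr* windows held none of these letters. Of 32851 promoter windows of the same length, 6.75% held the AP-1 motif, 22.8% the TATA motif, 32.7% the GC box, 14.0% the retinoic acid half-site and 1.55% the CRE. The absence of a match says only that these letters are not in this window.

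Brevican mRNA was the most abundant of the 10 in every group, at 255 to 279 FPKM as group means. Neurocan followed in proliferating cultures (227.54 to 248.61 FPKM in Ctrl) and *Sparc* in differentiation cultures (262 ± 22.2 FPKM in Ctrl, SD, n = 3), and in all 4 groups the values of the second gene overlapped those of *Bcan*. The lowest level was that of *Prelp* in proliferating cultures (0.553 ± 0.120 FPKM in Ctrl, SD, n = 3) and that of *Tnc* in differentiation cultures (1.72 ± 0.203 FPKM in Ctrl, SD, n = 3). In proliferating Ctrl samples *Sparc* overlapped *Spon1*, *Vcan* overlapped *Tnr* and *Fn1* overlapped *Ecm1*. In proliferating NAD+ samples *Tnc* overlapped *Spon1*, *Ecm1* overlapped *Tnr*, and *Tnr* overlapped *Vcan*. Below the first 2 places in the differentiation groups no neighbours overlapped. The sum of all 10 genes was 624.28 to 662.41 FPKM in proliferating Ctrl, 602.32 to 704.76 FPKM in proliferating NAD+, 828.99 to 861.8 FPKM in differentiation Ctrl and 810.99 to 859.06 FPKM in differentiation NAD+ samples, so the sums of the Ctrl and NAD+ groups overlapped in both conditions.

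**Figure D1:**
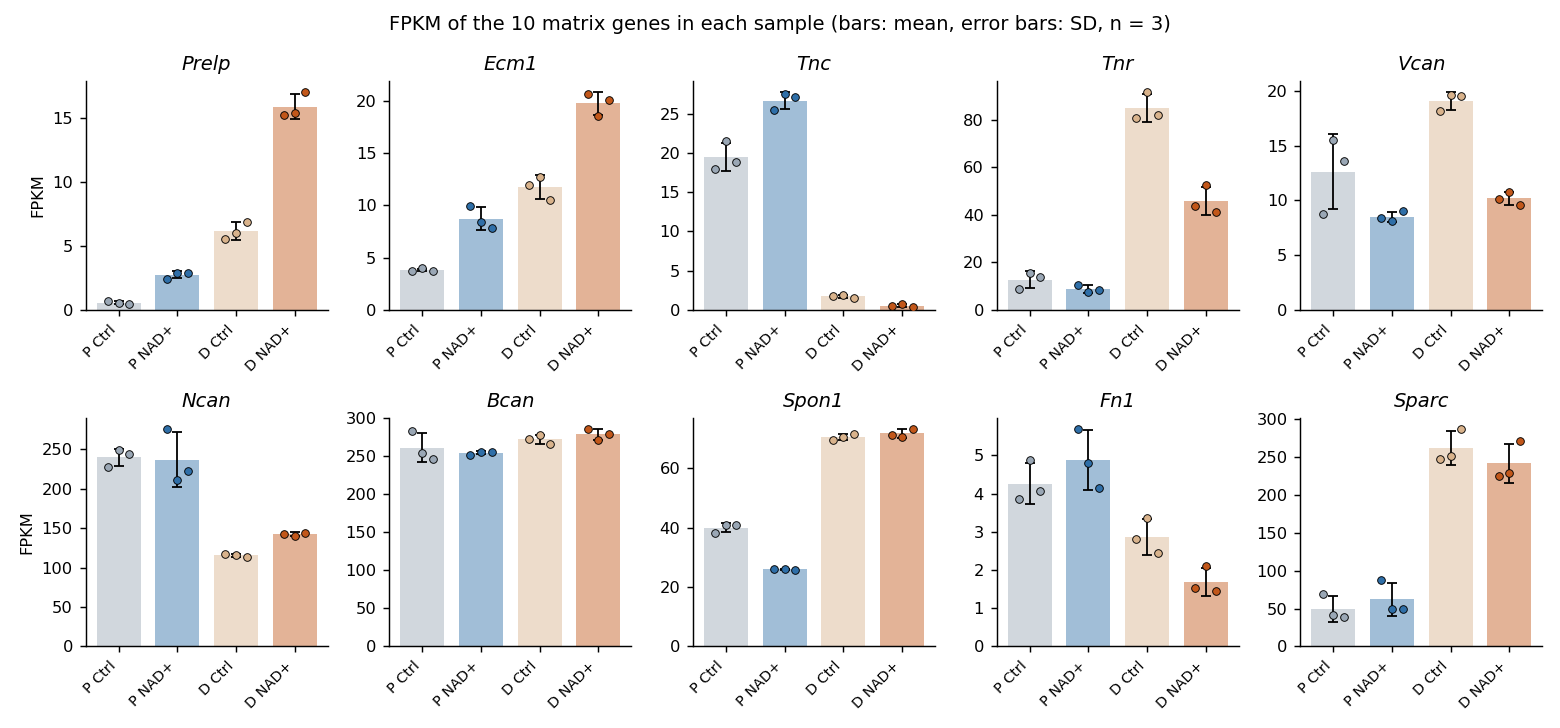
FPKM (y axis, linear from 0, 1 panel per gene) of the 10 matrix genes in the proliferating (P) and differentiation (D) samples. Points are samples, bars are means and error bars are SD (n = 3). *Prelp* and *Ecm1* are higher with NAD+ in both conditions, *Vcan* and *Tnr* separate under differentiation conditions, and *Tnc* is at 18.01 to 27.46 FPKM in the proliferating and at 0.34 to 1.88 FPKM in the differentiation samples.

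*Prelp* and *Ecm1* rose with NAD+ in both conditions. *Prelp* encodes a small leucine-rich proteoglycan that anchors basement membrane to connective tissue. In proliferating Ctrl samples 1, 2 and 3 it was at 0.67, 0.56 and 0.43 FPKM, against 2.43, 2.89 and 2.87 FPKM with NAD+. Under differentiation conditions it was at 5.50, 6.02 and 6.88 FPKM in Ctrl and at 15.23, 15.36 and 17.02 FPKM with NAD+. All 4 groups were separate, with every NAD+ sample above every Ctrl sample of its condition. The ratio of the mean FPKM was 4.93 in proliferating and 2.59 in differentiation cultures. On the log2(FPKM + 0.1) scale used for all fits, which understates changes of low genes, the differences were 2.13 ± 0.20 (SE) and 1.36 ± 0.10 (SE).

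*Ecm1* encodes a secreted glycoprotein that binds perlecan and other matrix proteins. It was at 3.76, 3.97 and 3.74 FPKM in proliferating Ctrl samples and at 9.94, 8.39 and 7.88 FPKM in proliferating NAD+ samples. The differentiation samples were at 12.01, 12.74 and 10.57 FPKM in Ctrl and at 20.67, 18.56 and 20.15 FPKM with NAD+. As for *Prelp*, no Ctrl value overlapped the NAD+ values of its condition, and the 4 groups stood in the same order. The mean FPKM was 2.29 times higher with NAD+ in proliferating and 1.68 times higher in differentiation cultures, with log2 differences of 1.17 ± 0.12 (SE) and 0.75 ± 0.08 (SE).

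Both tenascins fell with NAD+ in differentiation cultures, and neither passed the threshold in proliferating cultures. *Tnc*, tenascin-C, is the tenascin of germinal zones. It was at 18.01, 21.50 and 18.89 FPKM in proliferating Ctrl samples and at 25.41, 27.46 and 27.15 FPKM with NAD+, and at 1.78, 1.88 and 1.49 FPKM against 0.48, 0.74 and 0.34 FPKM in differentiation samples. Every NAD+ sample was thus above Ctrl under proliferating and below Ctrl under differentiation conditions, where all values were low. The log2 difference was 0.46 ± 0.09 (SE) in proliferating cultures, which was not past the adjusted threshold, and *Tnc* fell by 1.60 ± 0.26 (SE) in differentiation cultures, where its mean FPKM was 3.30 times lower with NAD+. With 1 instead of 0.1 added before the logarithm the latter difference was -0.84.

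*Tnr* encodes tenascin-R, made mainly by cells of the oligodendrocyte lineage and by some neurons. In proliferating samples it was at 8.57, 15.63 and 13.74 FPKM in Ctrl and at 10.42, 7.41 and 8.25 FPKM with NAD+. Ctrl replicate 1 lay within the NAD+ range, so these groups overlapped, and the log2 difference of -0.51 ± 0.24 (SE) was -0.76 without that replicate, -0.33 without Ctrl replicate 2 and between -0.64 and -0.40 without any one of the others. Under differentiation conditions *Tnr* was at 80.84, 91.73 and 82.06 FPKM in Ctrl and at 43.52, 52.37 and 41.31 FPKM with NAD+. The groups did not overlap, and *Tnr* fell by 0.90 ± 0.10 (SE) on the log2 scale, a mean FPKM 1.86 times lower. The ratio of *Tnr* to *Tnc* FPKM was 0.643 ± 0.145 (SD, n = 3) in proliferating Ctrl and 0.328 ± 0.0731 (SD, n = 3) in proliferating NAD+ samples. Among proliferating Ctrl samples it was 0.476 in replicate 1 and 0.727 in both replicates 2 and 3. In Ctrl differentiation samples it was 49.8 ± 4.90 (SD, n = 3), and in NAD+ differentiation samples it ran from 70.8 to 121.5 around a mean of 94.3 ± 25.6 (SD, n = 3). The Ctrl and NAD+ ratios did not overlap in either condition, with NAD+ the lower in proliferating and the higher in differentiation cultures.

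Among the lecticans, versican and neurocan moved in opposite directions with NAD+ during differentiation, and brevican stayed close to its Ctrl values. *Vcan*, versican, the largest lectican, was at 8.80, 15.55 and 13.60 FPKM in proliferating Ctrl samples and at 8.39, 8.11 and 9.01 FPKM with NAD+. Ctrl replicate 1 again lay among the NAD+ values, and the log2 difference of -0.53 ± 0.21 (SE) was -0.77 without it, -0.36 without Ctrl replicate 2 and between -0.57 and -0.46 without any one of the others. Differentiation samples were at 18.16, 19.64 and 19.53 FPKM in Ctrl and at 10.17, 10.82 and 9.57 FPKM with NAD+. These groups were far apart, and *Vcan* fell by 0.90 ± 0.07 (SE), a mean FPKM 1.88 times lower.

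*Ncan* encodes neurocan, a lectican of the developing brain. It was at 227.54, 248.61 and 243.73 FPKM in proliferating Ctrl and at 276.27, 211.74 and 222.86 FPKM in proliferating NAD+ samples, which overlapped. Under differentiation conditions it was at 117.70, 115.83 and 113.88 FPKM in Ctrl and at 142.92, 140.12 and 144.48 FPKM with NAD+, with no overlap. The log2 difference was -0.03 ± 0.12 (SE) in proliferating cultures, and *Ncan* rose by 0.30 ± 0.04 (SE) in differentiation cultures, a mean FPKM 1.23 times higher. The former changed sign when quantile normalization was applied, to 0.10.

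*Bcan*, brevican, was at 283.64, 254.80 and 246.74 FPKM in proliferating Ctrl and at 252.61, 256.34 and 256.56 FPKM in proliferating NAD+ samples. Differentiation samples were at 273.41, 277.92 and 265.99 FPKM in Ctrl and at 286.39, 271.37 and 279.68 FPKM with NAD+. Groups overlapped in both conditions, with log2 differences of -0.03 (95% interval -0.24 to 0.17) and 0.03 (95% interval -0.07 to 0.14). The sign of the first turned under quantile normalization (0.10) and without proliferating Ctrl replicate 1 (0.03).

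As a share of the summed lectican FPKM, *Bcan* made up 50.9 ± 3.19% (SD, n = 3) in proliferating Ctrl and 66.9 ± 0.322% (SD, n = 3) in differentiation Ctrl samples. In proliferating Ctrl replicate 1 this share was 54.5%, against 49.1% and 48.9% in replicates 2 and 3. With NAD+ the *Bcan* share was 51.1 ± 3.62% (SD, n = 3) in proliferating and 64.6 ± 0.473% (SD, n = 3) in differentiation samples. Among differentiation samples the *Ncan* share was 28.4 ± 0.376% (SD, n = 3) for Ctrl and 33.0 ± 0.424% (SD, n = 3) for NAD+. *Vcan* held 4.69 ± 0.232% (SD, n = 3) of the Ctrl sum there and 2.36 ± 0.182% (SD, n = 3) of the NAD+ sum. Within differentiation cultures the shares of all 3 lecticans were separate between Ctrl and NAD+, while the proliferating groups overlapped in all 3 shares.

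**Figure D2:**
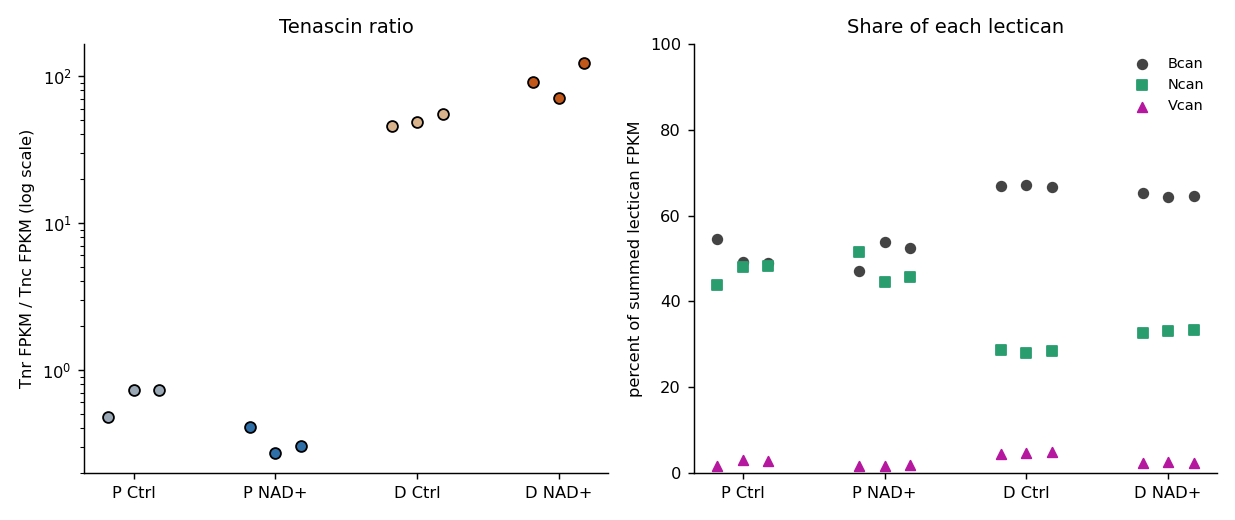
Left, the ratio of *Tnr* to *Tnc* FPKM (log scale) in each sample of the proliferating (P) and differentiation (D) groups. Right, the percent of the summed *Bcan*, *Ncan* and *Vcan* FPKM held by each gene in each sample. The ratio is below 1 in all 6 proliferating samples and above 45 in all 6 differentiation samples, and the *Ncan* share is lower in every differentiation sample than in any proliferating one.

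Of the 3 remaining glycoproteins, 1 was lower with NAD+ in proliferating cultures. *Spon1* encodes F-spondin, a secreted protein that guides axons and promotes their attachment. It was at 38.23, 40.88 and 41.01 FPKM in proliferating Ctrl samples against 26.25, 25.98 and 25.73 FPKM with NAD+. In differentiation samples it was at 69.40, 70.53 and 71.49 FPKM in Ctrl and at 71.31, 70.71 and 73.39 FPKM with NAD+. Replicates lay within 3 FPKM of each other in every group, with a wide gap between Ctrl and NAD+ in proliferating samples and an overlap in differentiation samples. *Spon1* fell by 0.62 ± 0.07 (SE) in proliferating cultures, a mean FPKM 1.54 times lower, and differed by 0.03 (95% interval -0.07 to 0.12) in differentiation cultures.

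*Fn1* encodes fibronectin, which binds integrins. Its proliferating samples were at 3.85, 4.87 and 4.06 FPKM in Ctrl and at 5.70, 4.80 and 4.15 FPKM with NAD+, and its differentiation samples at 2.80, 3.37 and 2.44 FPKM against 1.52, 2.11 and 1.45 FPKM. Only the differentiation groups were separate, and the log2 differences were 0.19 ± 0.16 (SE) and -0.73 ± 0.18 (SE), neither past the adjusted threshold. The first was 0.12 without Ctrl replicate 1, 0.073 without NAD+ replicate 1, 0.29 without Ctrl replicate 2 and 0.30 without NAD+ replicate 3, and the second stayed between -0.89 and -0.62 without any one sample. The second passed the threshold when genes with a mean FPKM under 1 were left out, and also when replicate number was fitted as a block.

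*Sparc* encodes a secreted collagen-binding protein of glia and vessels. It was at 69.34, 41.41 and 38.34 FPKM in proliferating Ctrl samples and at 87.34, 49.20 and 50.08 FPKM with NAD+. Replicate 1 was the highest of both groups. The same 2 samples had the highest values of 5 of 6 astrocyte markers in Ctrl and of 6 of 6 with NAD+, and the astrocyte sum was 445.11 FPKM there against 302.9 and 308.73 FPKM in the other Ctrl samples, and 354.55 against 231.69 and 233.11 FPKM in the other NAD+ samples. Of the 6 oligodendrocyte lineage markers reported here, 3 were highest in replicate 1 in each group. The part of these markers in the *Sparc* values was not tested. In differentiation samples *Sparc* was at 247.39, 250.93 and 287.47 FPKM in Ctrl and at 225.44, 228.83 and 271.67 FPKM with NAD+. The groups overlapped in both conditions, with log2 differences of 0.32 ± 0.30 (SE) and -0.12 ± 0.09 (SE), and the former was 0.59 without Ctrl replicate 1, 0.050 without NAD+ replicate 1, 0.16 without Ctrl replicate 3 and 0.22 without Ctrl replicate 2. The latter was -0.047 without Ctrl replicate 3, -0.068 and -0.078 without NAD+ replicates 1 and 2, and -0.20 without NAD+ replicate 3.

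A gene was counted as called when limma, fitted over all tested genes, gave an adjusted p under 0.05. In proliferating cultures 3 of the 10 genes were called (*Prelp*, *Ecm1* and *Spon1*), where 0.145% of 18597 tested genes were, and the groups of 4 genes (these and *Tnc*) did not overlap, where those of 24.1% of all tested genes did not. These calls depended on single samples. Without Ctrl replicate 1 the calls were 2 (*Prelp* and *Spon1*), and without any one of the other 5 proliferating samples they were 0, when 0 to 2 genes of the whole table were called. The log2 difference of *Prelp* stayed between 1.98 and 2.25, that of *Ecm1* between 1.07 and 1.24 and that of *Spon1* between -0.65 and -0.60 in these 6 fits. The rule of the study, an unadjusted p under 0.05 with a mean FPKM ratio over 2, was applied to the limma p. The study's own p-values were not used, so genes that pass need not be its own calls. *Prelp* and *Ecm1* passed, where 3.01% of all tested genes did. Nothing is read from these shares, since the genes were listed with this comparison known.

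In differentiation cultures 6 of the 10 were called (*Prelp*, *Ecm1*, *Ncan*, *Tnr*, *Vcan* and *Tnc*), where 6.92% of 19611 tested genes were. The groups of 7 genes, these and *Fn1*, did not overlap, where those of 30.7% of all tested genes did not. The rule of the study was met by *Prelp* and *Tnc*, against 4.05% of all tested genes. The median log2 difference of the 10 was -0.04 beside -0.08 over all tested genes. Nothing is read from these shares or the median, since the genes were chosen by this difference. The *Tnc* call was lost without any one of the 3 Ctrl samples (-1.57, -1.53 and -1.69 without Ctrl replicates 1, 2 and 3) or without NAD+ replicate 1 (-1.57). The *Ncan* call was lost without any one of the 3 Ctrl samples (0.31, 0.30 and 0.29). Under the same fits *Prelp*, *Ecm1*, *Tnr* and *Vcan* were called each time.

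**Figure D3:**
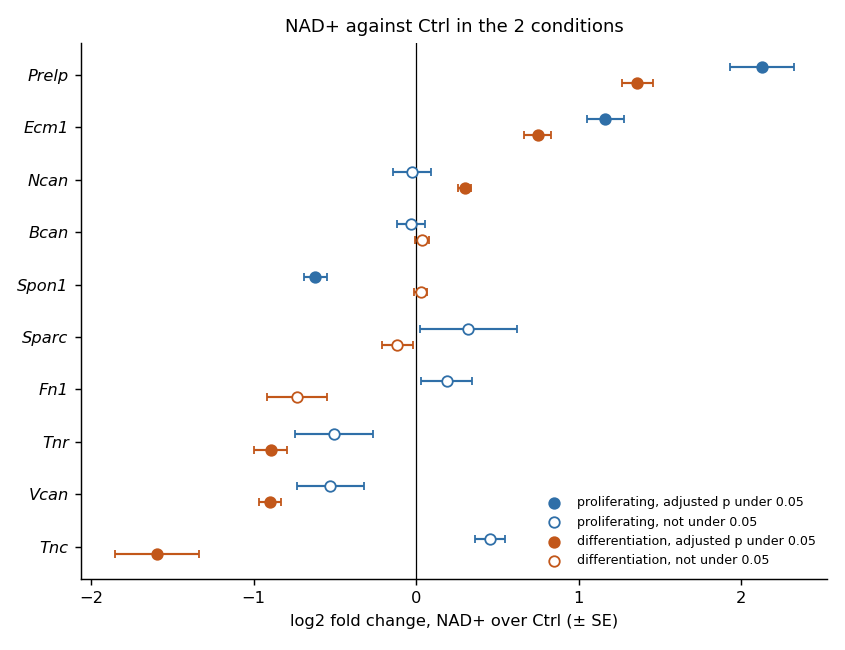
The log2 fold change of NAD+ over Ctrl (x axis, on the log2(FPKM + 0.1) scale) of each of the 10 genes in proliferating and differentiation cultures, with SE as error bars. Filled points have an adjusted p under 0.05. *Prelp* and *Ecm1* lie right of 0 in both conditions, *Spon1* lies left of 0 in proliferating cultures, and *Tnc* lies right of 0 in one condition and left of it in the other.

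The NAD+ difference itself was compared between conditions in a fit of all 12 samples. For *Tnc* the differentiation minus proliferating contrast was -2.05 ± 0.27 (SE) and for *Spon1* it was 0.65 ± 0.07 (SE), and these 2 of the 10 were called, where 0.467% of 19498 tested genes were. Nothing is read from this share, since the contrast is built from the differences by which the genes were chosen. The other 8 contrasts were not, and ranged from -0.92 (*Fn1*) to 0.33 (*Ncan*). *Prelp* (-0.77) and *Ecm1* (-0.42) had smaller log2 differences in differentiation than in proliferating cultures without passing the threshold. Without proliferating NAD+ replicate 3, differentiation Ctrl replicate 1 or differentiation Ctrl replicate 2 the *Tnc* contrast was not called (-2.04, -2.02 and -1.99), whereas *Spon1* was called in each fit without 1 sample. With the fold rule only *Tnc* passed, where 3.62% of all tested genes did.

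Levels of cell type markers moved beside these differences in differentiation cultures. The 6 oligodendrocyte lineage markers reported here summed to 345.12 to 370.05 FPKM in Ctrl and to 287.34 to 333.1 FPKM with NAD+. Of 5 tested by limma 0 were called and 3 had an unadjusted p under 0.05, beside 4743 of all 19611 tested genes. The 6 astrocyte markers summed to 994.82 to 1083.72 FPKM in Ctrl and to 1305.59 to 1443.78 FPKM with NAD+. Most of each sum was *Gfap*, at means of 595 and 977 FPKM. *Gfap* rose by 0.72 ± 0.07 (SE) and *Slc1a2* rose by 0.26 while *Aldh1l1* fell by 0.61 ± 0.05 (SE). With NAD+ the means of *Aqp4* (34.8 to 27.8 FPKM) and *Gja1* (174 to 127 FPKM) were lower and that of *S100b* (94.8 to 107 FPKM) was higher, none of them called. Of the 6 neural stem/progenitor markers 2 were called in differentiation cultures, where *Vim* rose by 0.75 ± 0.12 (SE) and *Msi1* fell by 0.38 ± 0.06 (SE). In proliferating cultures limma called 0 of these 6, and 2 had an unadjusted p under 0.05, beside 2864 of all 18597 tested genes. There the oligodendrocyte lineage sum was 1247.22 to 1362 FPKM in Ctrl and 999.52 to 1034.77 FPKM with NAD+, and of 5 tested by limma 0 were called and 2 had an unadjusted p under 0.05. In differentiation cultures *Tnr* and *Vcan* were lower in the NAD+ group, which had the lower oligodendrocyte lineage sum. That sum was mostly *Olig1* and *Olig2*, at means of 224 and 118 FPKM in Ctrl and 197 and 101 FPKM with NAD+. In Ctrl the sum was lower in differentiation than in proliferating samples, as were *Olig1* and *Olig2* (log2 differences of -2.10 and -1.50). The Ctrl means of the other markers of this list were higher in differentiation samples. These were *Sox10* (5.34 to 9.21 FPKM, called), *Mbp* (0.557 to 5.37 FPKM, called), *Pdgfra* (3.57 to 4.46 FPKM, not called) and *Mog* (0 to 0.06 FPKM). *Tnr* and *Vcan* were also higher in differentiation samples in Ctrl (log2 differences of 2.78 and 0.63). The part of cell composition in the 10 genes' differences was not tested.

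The genes were chosen by NAD+ differences in these same 12 samples, with earlier results of these data known. The comparison of differentiation with proliferating cultures is therefore not independent of that choice, and its p-values are given as a description. It was made within Ctrl and within NAD+, which share no sample, and each sample's FPKM summed over exon length to between 873052 and 901498, so the 2 tables were on 1 scale. Mitochondrially encoded genes held 16.5% to 19.9% of the FPKM sum in proliferating and 28.9% to 33.2% in differentiation samples, and the median log2 difference of all tested genes was -0.06 in Ctrl and -0.20 in NAD+ cultures. In Ctrl cultures 9 of the 10 genes were called by limma, where 56.7% of all tested genes were, and the groups of 9 genes did not overlap, where those of 61.7% did not. In NAD+ cultures 8 were called, where 58.4% of all tested genes were, and the groups of all 10 did not overlap, beside 66.3%.

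*Tnc* had the largest fall of the 10 on differentiation, by 3.43 ± 0.19 (SE) on the log2 scale in Ctrl (adjusted p = 1.37e-07, limma) and by 5.48 ± 0.19 (SE) with NAD+ (adjusted p = 4.68e-09, limma). Its mean FPKM was 11.3 times lower in Ctrl and 51.3 times lower in NAD+ cultures. *Tnr* rose by 2.78 ± 0.20 (SE) in Ctrl (adjusted p = 7.81e-07, limma) and by 2.39 ± 0.20 (SE) with NAD+ (adjusted p = 1.81e-06, limma), so the 2 tenascins exchanged places in the order of levels.

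*Prelp* rose by 3.26 ± 0.14 (SE) in Ctrl (adjusted p = 2.43e-08, limma) and by 2.50 ± 0.14 (SE) with NAD+ (adjusted p = 1.21e-07, limma). *Ecm1* rose by 1.59 ± 0.10 (SE) (adjusted p = 2.80e-07, limma) and by 1.18 ± 0.10 (SE) (adjusted p = 1.93e-06, limma), respectively. Both were thus higher on differentiation as well as with NAD+. *Sparc* rose by 2.44 ± 0.25 (SE) in Ctrl (adjusted p = 8.85e-06, limma) and by 2.01 ± 0.25 (SE) with NAD+ (adjusted p = 3.27e-05, limma), and *Spon1* by 0.81 ± 0.05 (SE) and 1.46 ± 0.05 (SE) (adjusted p = 2.59e-07 and 4.23e-09, limma). All 4 genes passed in both cultures.

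The lecticans did not move as a block. *Ncan* fell by 1.05 ± 0.09 (SE) in Ctrl (adjusted p = 2.56e-06, limma) and by 0.72 ± 0.09 (SE) with NAD+ (adjusted p = 3.51e-05, limma). *Vcan* rose by 0.63 ± 0.16 (SE) in Ctrl (adjusted p = 0.00697, limma), and its difference with NAD+ was 0.26 (95% interval -0.11 to 0.62, adjusted p = 0.204, limma). The *Vcan* rise in Ctrl was 0.39 without proliferating Ctrl replicate 1, the lowest of all settings, and was called in each setting. For *Bcan* the differences were 0.06 (95% interval -0.08 to 0.20, adjusted p = 0.451, limma) and 0.13 (95% interval -0.01 to 0.27, adjusted p = 0.108, limma). These *Vcan* and *Bcan* differences with NAD+ were called without proliferating Ctrl replicate 1, which enters that fit only through the shared spread, and under median-ratio scaling (0.54 and 0.41) and quantile normalization (0.64 and 0.32). Quantile normalization also gave a call for *Bcan* in Ctrl (0.44). *Fn1* fell by 0.56 ± 0.18 (SE) in Ctrl (adjusted p = 0.0194, limma) and by 1.48 ± 0.18 (SE) with NAD+ (adjusted p = 2.79e-05, limma). The *Fn1* call in Ctrl was lost under median-ratio scaling (-0.43) and without proliferating Ctrl replicate 2 (-0.46), differentiation Ctrl replicate 1 (-0.55) or differentiation Ctrl replicate 3 (-0.45).

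**Figure D4:**
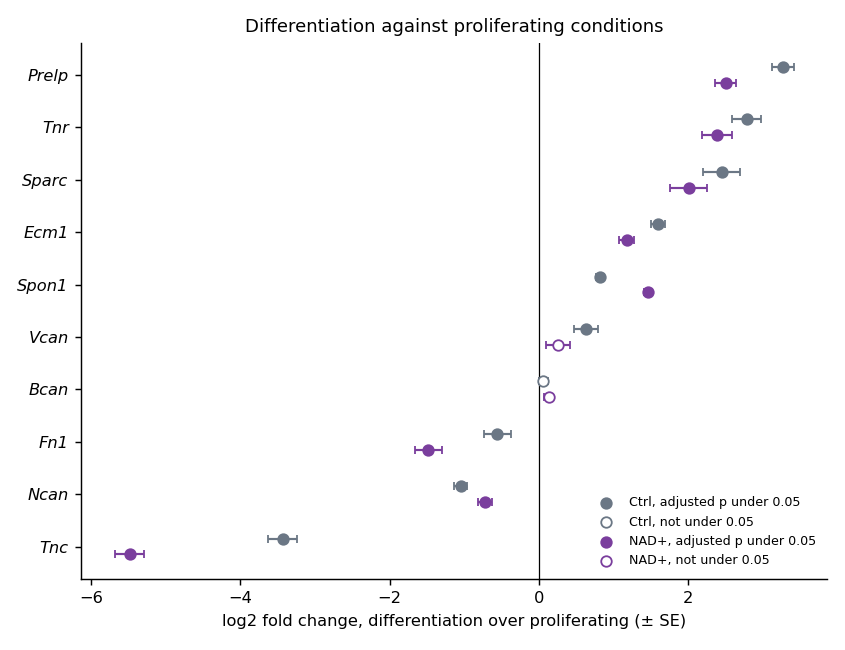
The log2 fold change of differentiation over proliferating cultures (x axis, log2(FPKM + 0.1) scale) of the 10 genes, in Ctrl and in NAD+, with SE as error bars. Filled points have an adjusted p under 0.05. *Prelp*, *Tnr*, *Sparc*, *Ecm1* and *Spon1* lie right of 0 and *Tnc*, *Ncan* and *Fn1* left of 0 in both, with *Tnc* further left in NAD+ (-5.48) than in Ctrl (-3.43).

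Around these genes, 106 further matrix genes were followed in 5 lists. The lists were drawn up with earlier results of these data known, so the adjusted p-values of their genes are a description. In proliferating cultures 70 were tested and 0 were called by limma. An unadjusted p under 0.05 was found for 22 of them, beside 2864 of all 18597 tested genes. Of the 22, 11 were among the 16 tested cell surface and basement membrane proteoglycans (median log2 difference -0.30 beside 0.07 over all tested genes). In differentiation cultures 12 of 80 were called, 9 of them lower (4.65% of all tested genes were called lower) and 3 higher (2.27%). None of 7 hyaluronan network genes was called, and none had an unadjusted p under 0.05 in the same limma fit, beside 4743 of all 19611 tested genes. The count was 4, 5 and 5 without differentiation Ctrl replicates 1, 2 and 3 and 6 without NAD+ replicate 1 or 3.

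Among small leucine-rich proteoglycans, the group of *Prelp*, 1 of 6 tested was called. This was *Ecm2*, a decorin-related matrix protein, which rose by 0.54 ± 0.09 (SE) from 3.46 ± 0.260 to 5.06 ± 0.351 FPKM (SD, n = 3) with NAD+ (adjusted p = 0.0253, limma). Its call was lost without any single differentiation sample but NAD+ replicate 2. Of the 6 tested, 5 had an unadjusted p under 0.05 by limma, beside 4743 of all 19611 tested genes. The groups of 5 did not overlap, where those of 30.7% of all tested genes did not. The median log2 difference of the 6 was -0.13, beside -0.08 over all tested genes. Of 31 other glycoproteins 7 were called. *Matn2*, matrilin-2, an adaptor of the filamentous matrix, rose by 0.73 ± 0.09 (SE) from 5.58 to 9.27 FPKM (adjusted p = 0.0114, limma). *Reln*, reelin, which guides neuron migration, fell by 0.64 ± 0.07 (SE) from 8.15 to 5.20 FPKM (adjusted p = 0.00821, limma), and *Fbln1*, fibulin-1, fell by 0.84 ± 0.11 (SE) from 4.38 to 2.40 FPKM (adjusted p = 0.0126, limma). The other 3 to fall, outside the naming rule, were *Matn1* (-1.58), *Nid1* (-0.53) and *Mfge8* (-0.34). The *Matn2* call was lost without differentiation Ctrl replicate 1 (0.70) and the *Fbln1* call without differentiation Ctrl replicate 3 (-0.83). *Ccn4*, a secreted Wnt-induced matricellular protein named here after its values were seen because it lies furthest from 0, rose from 0.15 to 0.19 FPKM in Ctrl to 0.96 to 1.51 FPKM with NAD+ (log2 difference 2.36 ± 0.23, SE, adjusted p = 0.00588, limma).

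The chains of the lecticans are chondroitin sulfate, and 2 of 19 tested enzymes that make it were called, both lower with NAD+ in differentiation cultures. *Chst3*, which sulfates the 6-position of N-acetylgalactosamine, fell by 1.36 ± 0.20 (SE) from 2.27 ± 0.330 to 0.833 ± 0.190 FPKM (SD, n = 3) (adjusted p = 0.0153, limma). *Csgalnact1*, which starts chondroitin chains, fell by 0.36 ± 0.08 (SE) from 16.1 to 12.5 FPKM (adjusted p = 0.0433, limma). Its call was lost under median-ratio scaling (-0.28), under quantile normalization (-0.29) and without the filter. It was also lost without any single differentiation sample but NAD+ replicate 2, and it held in 6 of 14 settings. The *Chst3* call was lost without differentiation Ctrl replicate 1 (-1.29) or 2 (-1.30). Cell surface and basement membrane proteoglycans had 2 of 17 called, *Gpc3* (-1.12) and *Gpc6* (-1.04), glypicans with a mean FPKM under 1 that are named here after their values were seen.

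**Figure D5:**
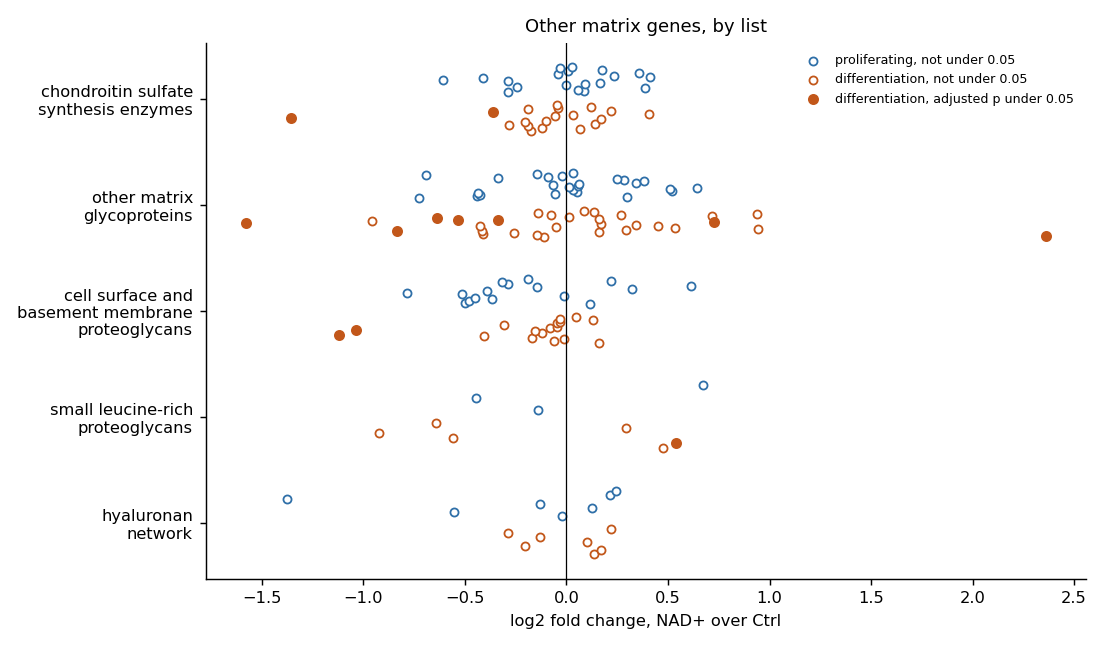
The log2 fold change of NAD+ over Ctrl (x axis, log2(FPKM + 0.1) scale) of the tested genes of 5 further matrix lists in proliferating and differentiation cultures. Each point is a gene, and filled points have an adjusted p under 0.05. All 12 filled points belong to differentiation cultures, 9 of them left of 0.

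For *Prelp*, *Ecm1* and *Tnc* the genes with the most similar pattern over the 12 samples were looked up among 12928 genes, by the root-mean-square difference of gene-centred log2 values. For *Prelp* these were *Cacng5* (0.369), an AMPA receptor auxiliary subunit, *Il6ra* (0.410), the interleukin-6 receptor, and *Lgals4* (0.508), a galectin. For *Ecm1* they were *Ptpn3* (0.169), a tyrosine phosphatase, *Pdlim4* (0.204), an actin-associated protein, and *Coq8a* (0.237), a coenzyme Q synthesis protein. For *Tnc* they were *Neurl1b* (0.379), a ubiquitin ligase, *Ska3* (0.465), a spindle and kinetochore protein, and *Mcm2* (0.469), a subunit of the replicative helicase. *Mcm2* was at 16.1 and 18.4 FPKM in proliferating Ctrl and NAD+ cultures and at 1.08 and 0.720 FPKM in differentiation Ctrl and NAD+ cultures, as group means. The 12 samples of this comparison share their 4 groups, so the likeness is mostly that of group means.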

How the data were processed

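Bulk RNA-seq of 12 samples in 4 groups was analysed. Per the methods, the authors used Hisat2 v2.0.5 to map clean reads on mm10, retained unique alignments and assigned them to genes by FeatureCounts v2.0.1. They deposited FPKM values per sample, 1 table per condition. The program behind the FPKM is not given in the sources used here. Values are rounded to 0.01, so depth is unknown and no counting error was given. The authors' fold changes, p-values and q-values in these tables were not used. The members and lists were chosen with earlier results of these data known.

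FPKM was not rescaled, and log2(FPKM + 0.1) was fitted with limma 3.58.1 (R 4.3.3, variance trend, two-sided) for genes averaging 0.1 FPKM or more in the fitted samples, with Benjamini-Hochberg adjustment over all tested genes. Each NAD+ comparison used 6 samples and the others all 12. On simulated data 55.3% of genes changed by 1 on the log2 scale were recovered in the proliferating comparison and 71% in the differentiation comparison. The changed genes were drawn only from those with a mean FPKM of 1 or more, so recovery of lower genes is not known. Of the simulated calls, 4.79% and 4.02% were genes that had not been changed. All 10 genes were named. Other matrix genes were named if called with a mean FPKM of 1 or more, up to 2 of the largest rises and 2 of the largest falls per list, and for *Prelp*, *Ecm1* and *Tnc* the 3 nearest profiles. A marker gene of the oligodendrocyte lineage list is not reported here. Positions are from GENCODE M21. Alternatives were pseudocounts of 1 and 0.01, no filter or a minimum of 1, median-ratio and quantile scaling, a replicate block, the fold rule, and leaving out each sample.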

Additional observations from a re-analysis of the deposited data

Results flagged for a closer look

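The NAD+ difference differed between conditions, by the contrast of the 12-sample limma fit, for 2 of the 10 genes and for 2 other matrix genes named above. *Tnc* and *Spon1* were listed by these same NAD+ differences, so their contrasts are a description and no independent test. For *Tnc* the log2 difference in differentiation minus that in proliferating cultures was -2.05 ± 0.27 (SE), with NAD+ samples above all Ctrl samples in proliferating and below all Ctrl samples in differentiation cultures. For *Spon1* it was 0.65 ± 0.07 (SE), where NAD+ samples were lower in proliferating cultures and overlapped Ctrl in differentiation cultures. For *Fbln1* it was -0.89 ± 0.15 (SE), at 11.9 and 12.25 FPKM in proliferating Ctrl and NAD+ cultures and at 4.38 and 2.40 FPKM in differentiation Ctrl and NAD+ cultures. For *Ccn4* it was 2.03 ± 0.37 (SE), in a gene at 0.01 to 0.10 FPKM in all proliferating samples. The *Spon1* contrast was called in all 20 settings run, that of *Tnc* in 17 of 20, that of *Fbln1* in 5 of 20 and that of *Ccn4* in 5 of 19. None of the causes was tested.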

How the results depend on the processing

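Beside the main fits, 957 recomputed log2 differences of single genes gave 859 on the same side of the threshold with the same sign, 83 that lost a call, 9 that gained one and 6 that changed sign. The sign changes, none in a called difference, were those of *Ncan* (-0.03) under proliferating conditions with quantile normalization (0.10) or without NAD+ replicate 2 or 3 (range -0.14 to 0.049 without single samples), of *Bcan* (-0.03) there with quantile normalization (0.10) or without Ctrl replicate 1 (range -0.075 to 0.025 without single samples), and of the *Bcan* contrast between conditions (0.07) with quantile normalization (-0.12). Of the 10 genes, the 3 called under proliferating conditions became 0 without the filter, when more genes were tested, and 0 to 2 without single samples. Under differentiation conditions the 6 became 2 by the fold rule and 4 to 6 without single samples. The 2 called contrasts between conditions became 1 by the fold rule and 1 to 2 without single samples. Of the other matrix genes, the 0 called under proliferating conditions became 1 with a minimum mean FPKM of 1 (*Cspg5*) and 1 by the fold rule (*Has2*), both named after their values were seen, and stayed 0 without single samples. The 12 under differentiation conditions became 4 to 9 without single samples. For the comparisons of differentiation with proliferating cultures the counts were 6 to 10 in Ctrl and 7 to 10 in NAD+ under all settings. Except where a setting's construction is named, the cause was not tested.

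Over all genes, the share of higher calls under differentiation conditions moved from 445 of 1357 to 614 of 1146 with median-ratio scaling and 580 of 1161 with quantile normalization. All-gene calls under proliferating conditions were 27, but 9 without the filter, 75 with a minimum of 1 and 60 with quantile normalization. The median log2 difference of all genes moved from -0.16 to -0.02 for the contrast between conditions and from -0.20 to 0.05 for differentiation against proliferating NAD+ cultures with median-ratio scaling. Replicate numbers were not used as pairs in the main fits. Under proliferating conditions same-numbered deviations correlated at 0.11, 0.02 and 0.05, and Ctrl replicate 3 was closer to NAD+ replicate 2 (0.07). Under differentiation conditions they correlated at 0.04, 0.04 and 0.03, and differently numbered ones at -0.04 to -0.002. There each sample was closest to its own number. Correlations this small cannot decide whether the numbers pair the samples. With the replicate block 0 of the 10 genes were called under proliferating, 7 under differentiation conditions and 2 between conditions, and over all genes 0, 758 and 47. Depth is not known, so *Prelp* in proliferating and *Tnc* in differentiation cultures, at or under a few FPKM, carry a counting error that cannot be given.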
